A study of Mus musculus with 31 samples.

Results

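The nuclear genome encodes most subunits of the mitochondrial respiratory chain, and 84 such genes were followed here through 31 RNA-seq libraries of mouse dendritic cells and spleens. They were found by symbol: Ndufa, Ndufb, Ndufc, Ndufs or Ndufv with a digit, Sdha to Sdhd, Uqcr, Cox4i1, Cox5a, Cox5b, Cox6, Cox7, Cox8a and Atp5, leaving out names ending in -ps or Rik. The rule found 40 genes of complex I, 4 of complex II, 8 of complex III, 15 of complex IV and 17 of complex V among 29120 gene IDs, of which 26090 had a name. The members Ndufa11b, Ndufb4c, Ndufs6b and Cox6c2 are annotated as processed pseudogenes, and Cox7b2 had no line in any library.

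The respiratory chain passes electrons from NADH through complex I, or from succinate through complex II, to ubiquinone, complex III, cytochrome c and complex IV, which reduces oxygen. The proton gradient built on the way drives complex V, the ATP synthase. Complexes I, III, IV and V join subunits made from nuclear genes with subunits made from mitochondrial DNA, while complex II is wholly nuclear. Dendritic cells, which present antigen to T cells, are known to rely on this chain at rest and to turn toward glycolysis after sensing LPS, a component of the bacterial outer membrane.

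All mice were C57BL/6. Dendritic cells were grown for 10 days from the marrow of male animals aged 8 to 16 weeks, with supernatant of X63 cells that secrete GM-CSF. Treated cultures received LPS for 8 h from day 11. The 6 groups were LPS-treated dendritic cells labelled Gpr34-/-, LPS-treated wild-type cells, naive cells labelled Gpr34-/-, naive wild-type cells (n = 3 each), and spleens of Gpr34-/- (n = 9) and wild-type (n = 10) mice aged 12 weeks. Gpr34 is a receptor for lysophosphatidylserine. Total counts per library ran from 38998746 to 74164853 for dendritic cells and from 56834377 to 133277070 for spleens.

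Gpr34, the deleted gene, did not follow the label in every culture. It had 0, 117 and 104 counts in LPS-treated libraries labelled knockout and 125, 65 and 65 in LPS-treated wild-type ones, and 0, 120 and 4 counts in naive libraries labelled knockout and 324, 199 and 226 in naive wild-type ones. Knockout spleens had 42 to 156 counts and wild-type spleens 308 to 986. Dendritic cell genotype is therefore written as the label, and results for cells labelled knockout are also given without the 3 libraries that hold over 100 Gpr34 counts, naive replicate 3 and LPS replicates 3 and 4. Whether those counts come from the deleted locus or from admixed cells was not tested. Among 12 markers of dendritic cells and macrophages, 12 had counts in naive wild-type cells and 11 in LPS-treated wild-type cells, where Cd209a was at 0. Their summed level was 17070 to 23580 CPM over the dendritic cell libraries, which does not set these apart from spleens (10710 to 23730 CPM in knockout and 12330 to 18050 CPM in wild-type ones), while in the cultures 6 B cell markers summed to 1.59 to 9.49 CPM and 6 T cell markers to at most 10.1 CPM. CPM, the usual depth-scaled count, is given after adjusting each library for its composition (TMM factors) unless plain library sizes are named. All summed marker levels, here and below, are on plain library sizes. Nothing in the labels ties a replicate number to an animal, so p-values measure the spread between these samples, which may be technical.

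All members but 1 were expressed well enough to be tested in dendritic cells: 83 were tested there and 84 in spleen. Ndufa4l2, a relative of Ndufa4 known as hypoxia-inducible, had 0 counts in all 12 dendritic cell libraries. Per kilobase of transcript, complex V had the highest median level in every one of the 6 groups. The median member of complex V stood at 90.8 CPM per kb in LPS-treated cells labelled knockout, 106 in LPS-treated wild-type cells, 102 in naive cells labelled knockout, 118 in naive wild-type cells, 103 in knockout spleens and 88.3 in wild-type spleens. In naive wild-type dendritic cells the median was 76.3 CPM per kb for complex IV, 58.5 for complex III, 48.0 for complex II and 35.2 for complex I. The highest single members there were Ndufa3, a small accessory subunit of complex I, at 562 CPM per kb and Atp5c1, the gamma subunit of the ATP synthase stalk, at 520. These levels between genes carry a limit of the counting: for Cox7a2l, Cox5b and Ndufa11b every count in all 31 libraries was even, and counts shared a divisor above 1 in 514 of 15989 genes with over 2000 counts in all, so a read may have been counted more than once in some genes. Short members with near-identical copies elsewhere in the genome, 23 of 84, are uncertain in all comparisons.

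LPS lowered the share of all counts that fell on the members. They held 0.630, 0.612 and 0.602% of the counts in LPS-treated libraries labelled knockout (replicates 2, 3 and 4), against 0.910, 0.753 and 0.882% in naive ones (replicates 2, 3 and 4). In wild-type cells the shares were 0.662, 0.673 and 0.663% in LPS-treated libraries (replicates 1, 2 and 3), against 0.892, 0.931 and 0.883% in naive ones (replicates 1, 2 and 4). The LPS and naive groups do not overlap under either label, and naive replicate 3 labelled knockout is the lowest of the naive libraries. Complex I alone held 0.149 to 0.158% with LPS against 0.205 to 0.251% without it in cells labelled knockout, and 0.160 to 0.169% against 0.244 to 0.261% in wild-type cells.

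Most of that fall was shared with the median gene. The TMM factors were 0.848 to 0.919 in LPS-treated and 1.10 to 1.16 in naive libraries, so scaling by plain library size moved the median log2 fold change of all genes to -0.44 in wild-type cells and -0.35 in cells labelled knockout, against -0.03 and -0.02 with the factors. On plain library sizes the members' median was -0.54 in wild-type cells and -0.50 in cells labelled knockout, and 0 members passed as higher and 60 as lower under each label. With the factors the members' median was -0.12 in wild-type cells and -0.17 in cells labelled knockout, and the split of calls was 5 higher to 11 lower and 1 higher to 16 lower. Changes below are therefore relative to the bulk of the genes. In whole cultures, fewer cells of a type and less RNA per cell cannot be told apart.

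**Figure D1:**
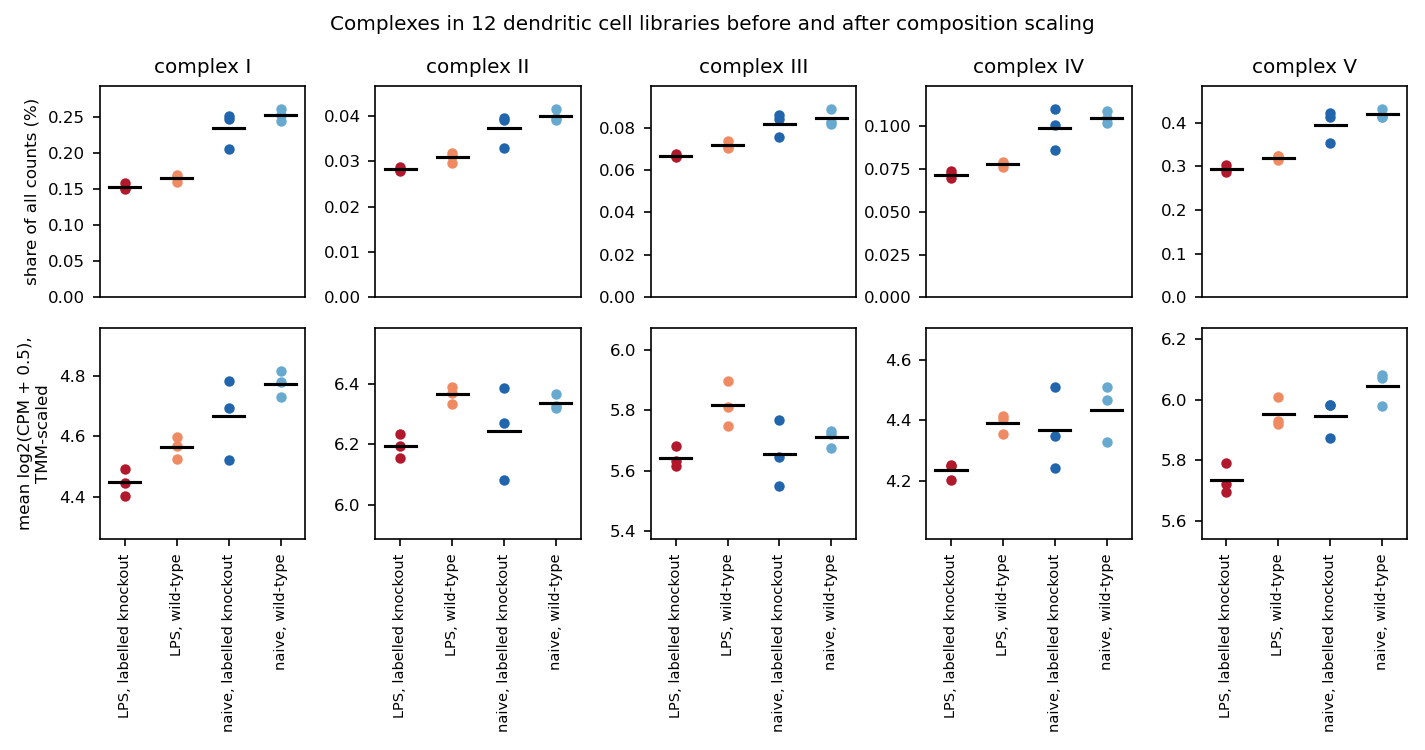
Share of all counts (upper row, %) and mean log2(CPM + 0.5) after composition scaling (lower row) for the members of each complex in 12 dendritic cell libraries, 3 per group (points: libraries; bars: group means). The share of complex I is 0.149 to 0.169% in the 6 LPS-treated libraries and 0.205 to 0.261% in the 6 naive ones. After scaling these sets overlap, at 4.403 to 4.598 with LPS and 4.522 to 4.815 without it, while the groups under each label stay apart.

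Relative to other genes, LPS left most members without a call. Most of the members called lower were of complex I, which holds 39 of the 83 tested. In wild-type cells 5 of 83 members (6.02%) rose and 11 (13.3%) fell by edgeR's quasi-likelihood test with Benjamini-Hochberg adjustment at 0.05 over all genes, against 18.1% of all genes that rose and 15.8% that fell. In cells labelled knockout 1 member (1.21%) rose and 16 (19.3%) fell, against backgrounds of 15.3% higher and 13.4% lower. Within complex I 11 of 39 tested members (28.2%) fell in cells labelled knockout, against 13.4% of all genes. In wild-type cells 8 (20.5%) fell, against 15.8%, and 0 and 1 rose in the same order. Its median log2 fold change was -0.26 in cells labelled knockout and -0.18 in wild-type cells. Complex V had medians of -0.19 and -0.15, complex IV -0.13 and -0.03, complex II -0.06 and 0.03, and complex III 0.04 and 0.11, where the value for cells labelled knockout precedes that for wild-type cells.

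The 2 responses share no libraries. Of the 24 members called under either label, Uqcrfs1 rose under both and 8 fell under both, 7 were called in wild-type cells alone and 8 in cells labelled knockout alone. LPS and naive libraries did not overlap in CPM for 11 higher (13.3%) and 22 lower members (26.5%) in wild-type cells, against 25.6% and 25.3% of all genes. The same counts in cells labelled knockout were 4 higher (4.82%) and 20 lower (24.1%), against 21.3% and 20.4% of all genes. The count of lower members was sensitive to single libraries. In cells labelled knockout it was 5 without naive replicate 2, 28 without naive replicate 3, 8 without naive replicate 4, 10 without LPS replicate 2, and 7 without LPS replicate 3 or LPS replicate 4. Fitted on the 6 libraries compared alone it was 6, and without the 3 libraries with Gpr34 counts 13 members fell and 1 rose, where the lone LPS library left is assumed to vary like the other groups. In wild-type cells it was 6 without LPS replicate 1 and 7 without LPS replicate 3.

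Proliferation genes moved with LPS as well. All 8 markers of proliferating cells had counts in each group, and their levels were summed on plain library sizes. In cells labelled knockout the sum was 53.4 to 80.5 CPM with LPS against 96.8 to 411 CPM without it. In wild-type cells it was 54.2 to 75.1 against 325 to 367 CPM. With composition factors of 0.884 for LPS replicate 4 and 1.10 for naive replicate 3, the groups labelled knockout would overlap. The lowest naive value belongs to replicate 3 labelled knockout, which also had the lowest naive share of member counts. Its part in the results was not tested.

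**Figure D2:**
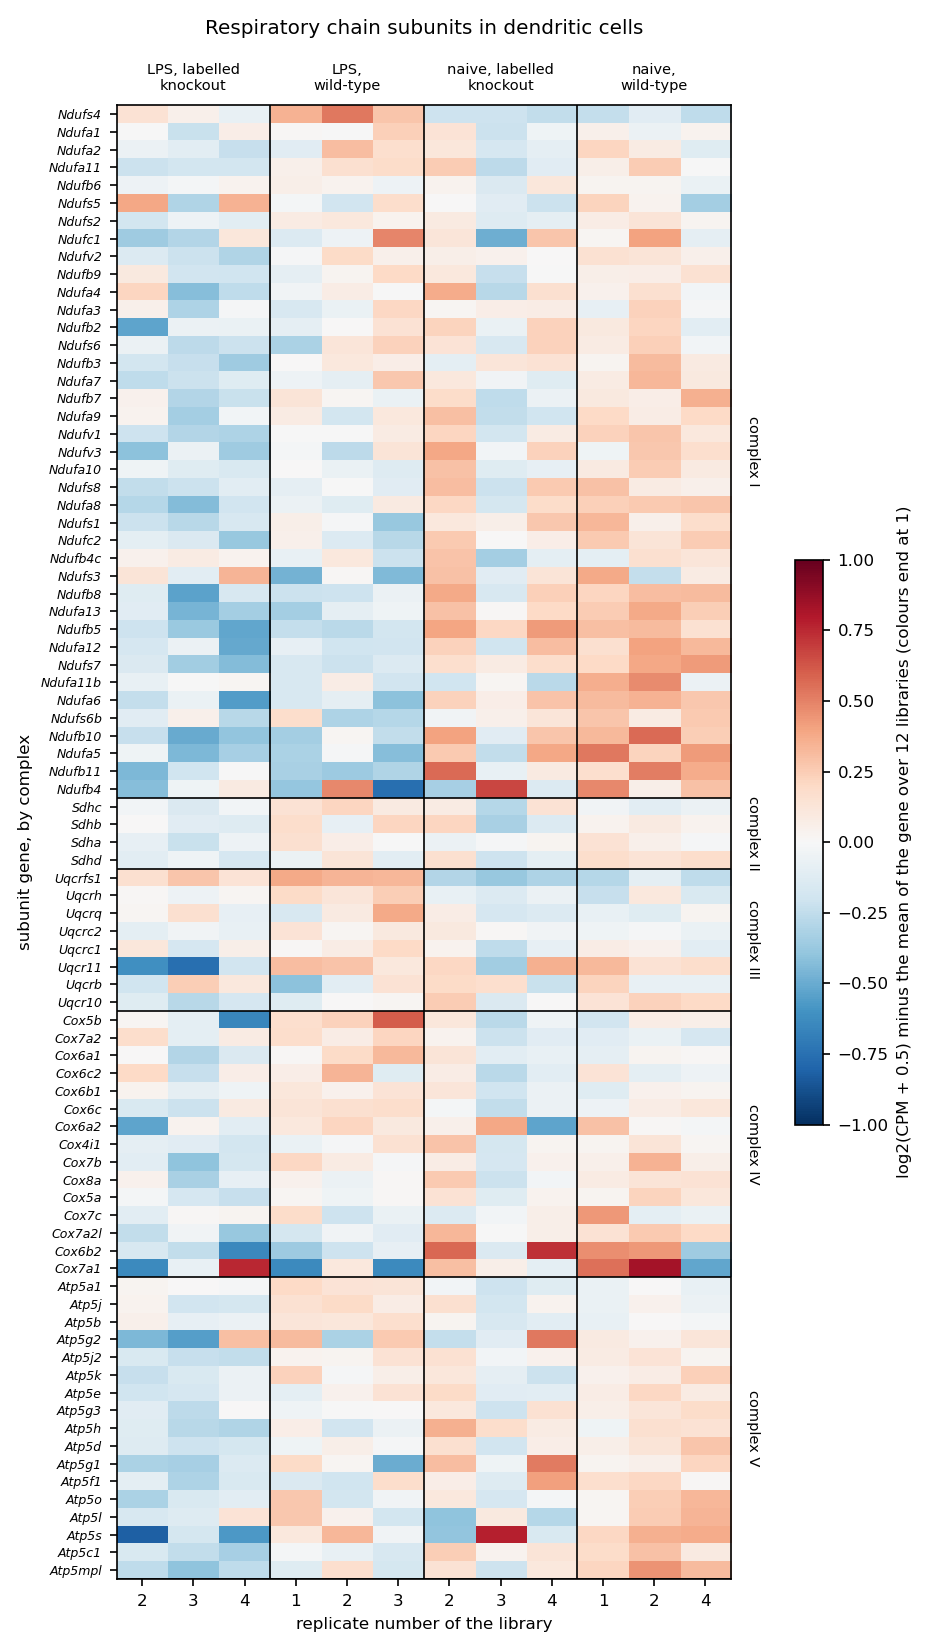
Log2(CPM + 0.5) of each of 83 members minus its own mean over the 12 dendritic cell libraries (colour, ending at 1 either way), one row per gene grouped by complex and one column per library. Lower values of complex I members such as Ndufb5 and Ndufs7 fill the 6 LPS-treated columns, while Ndufs4 and Uqcrfs1 run the other way, most of all in LPS-treated wild-type cells.

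Among members of complex I, Ndufb5 and Ndufs7 gave the steadiest falls. Ndufb5, an accessory subunit of the membrane arm (ENSMUSG00000027673, chr3:32736990-32751566 in GRCm38), stood at 155, 138 and 124 CPM in knockout-labelled cells given LPS, against 235, 206 and 239.9 CPM in naive ones. It stood at 151, 148 and 157 CPM in LPS-treated wild-type cells, against 219.9, 222 and 199 CPM in naive ones. Every LPS-treated library lies below every naive one. The log2 fold change was -0.71 (SE 0.097, adjusted p = 0.000383) in cells labelled knockout and -0.49 (SE 0.097, adjusted p = 0.00261) in wild-type cells. Ndufs7, a core subunit that carries an iron-sulfur cluster and was chosen for naming after its values were seen, had 62.1, 54.1 and 50.9 CPM in knockout-labelled cells given LPS, against 77.6, 72.9 and 77.9 CPM in naive ones. In wild-type cells it had 61.4, 59.2 and 62.7 CPM with LPS, against 79.0, 90.1 and 92.4 CPM without it. The groups are apart under both labels, with log2 fold changes of -0.45 (adjusted p = 0.00462) in cells labelled knockout and -0.51 (adjusted p = 0.00174) in wild-type cells. In cells labelled knockout the Ndufs7 call was lost without the 3 libraries with Gpr34 counts (log2 fold change -0.36, adjusted p = 0.0806), while Ndufb5 kept its call (-0.65, adjusted p = 0.00276).

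The 4 largest falls called in complex I in wild-type cells were those of accessory subunits. Ndufa6 had 25.2, 26.5 and 21.1 CPM in LPS-treated wild-type cells, against 35.3, 36.2 and 34.1 CPM in naive ones (log2 fold change -0.53, adjusted p = 0.0110), and in cells labelled knockout 23.9, 27.0 and 19.02 CPM with LPS, against 33.3, 29.6 and 34.6 CPM without (-0.48, adjusted p = 0.0225). Ndufb10 had 72.6, 93.5 and 77.6 CPM in LPS-treated wild-type cells, against 115, 137 and 109.6 CPM in naive ones (-0.57, adjusted p = 0.0133). Ndufa5 had 19.5, 24.2 and 18.1 CPM in LPS-treated wild-type cells, against 35.5, 28.6 and 33.0 CPM in naive ones (-0.65, adjusted p = 0.0189). In wild-type cells the groups of these 3 genes do not overlap. Ndufb11, which has 1 near-identical copy and is uncertain for that reason, fell by 0.72 on the log2 scale in wild-type cells (adjusted p = 0.0124). Ndufa13, an accessory subunit also known as GRIM-19, and Ndufb8 completed the wild-type count at -0.45 and -0.44. The wild-type calls of Ndufb10 and Ndufa13 were lost without LPS replicate 1, and that of Ndufa5 without LPS replicate 1, LPS replicate 3 or naive replicate 1. The wild-type call of Ndufb8 was lost without LPS replicate 1, LPS replicate 2, naive replicate 2 or naive replicate 4. In cells labelled knockout Ndufa6 and Ndufa13 kept their calls in 9 of 12 omissions, Ndufb10 in 10 and Ndufb8 in 2. Without the 3 libraries with Gpr34 counts, which leaves LPS replicate 2 alone there, the Ndufa13 call was lost. The log2 fold changes were then -0.54 for Ndufa6, -0.40 for Ndufa13, -0.61 for Ndufb10 and -0.47 for Ndufb8.

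A further 5 members of complex I were called in cells labelled knockout and not in wild-type cells, and the difference between the labels passed for 0 of them. Ndufv1, a core subunit which binds NADH and flavin, fell by 0.32 on the log2 scale in cells labelled knockout (adjusted p = 0.0354) and had -0.18 in wild-type cells. Ndufv3, a subunit bound to it, fell by 0.48 in cells labelled knockout (adjusted p = 0.0328) and had -0.18 in wild-type cells. Ndufv2 fell by 0.25 (adjusted p = 0.0322) against -0.03 in wild-type cells, Ndufs1, the largest core subunit, by 0.36 (adjusted p = 0.0463) against -0.29, and Ndufa8 by 0.39 (adjusted p = 0.0363) against -0.29. Ndufv3 is named by the rule and the other 4 to complete the count. The calls were fragile: of 12 omissions of a library, Ndufv1 kept its call in 7, Ndufv2 in 8, Ndufv3 in 8, Ndufs1 in 5 and Ndufa8 in 6. Without the 3 libraries with Gpr34 counts Ndufs1 and Ndufv2 lost their calls (adjusted p = 0.179 and 0.239), Ndufv1, Ndufv3 and Ndufa8 did not, and Ndufa8 then passed in wild-type cells too (-0.31, adjusted p = 0.0399).

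Ndufs4 was the exception in complex I. This accessory subunit helps to hold the NADH-oxidising part in place, and mice without it develop a Leigh-like brain disease. It had 30.4, 28.5 and 26.1 CPM in knockout-labelled cells given LPS, against 23.8, 23.8 and 23.1 CPM in naive ones. It had 35.1, 39.8 and 33.3 CPM in LPS-treated wild-type cells, against 23.3, 25.4 and 22.9 CPM in naive ones. The groups are apart under both labels, and the wild-type LPS libraries are the highest of the 12. The log2 fold change was 0.60 (SE 0.10, adjusted p = 0.000976) in wild-type cells and 0.27 in cells labelled knockout, where it did not pass (adjusted p = 0.0700). The wild-type call held in 18 of 19 alternatives and was lost on plain library sizes (0.19, adjusted p = 0.173), where the groups overlapped.

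Ndufs4 and Ndufs7 moved in opposite directions with LPS, yet both promoters hold the same YY1 core (AAGATGGCG), and they are shown for that reason, followed by Ndufa6, which fell, with the NRF1 core. The sequences are from RefSeq on GRCm38.p6, 250 bases before to 50 after the start, 5′ to 3′ on the gene's strand, with the motif in capitals. They lie at chr13:114388045-114388344 (minus strand), chr10:80249199-80249498 (plus strand) and chr15:82354242-82354541 (minus strand).
Ndufs4: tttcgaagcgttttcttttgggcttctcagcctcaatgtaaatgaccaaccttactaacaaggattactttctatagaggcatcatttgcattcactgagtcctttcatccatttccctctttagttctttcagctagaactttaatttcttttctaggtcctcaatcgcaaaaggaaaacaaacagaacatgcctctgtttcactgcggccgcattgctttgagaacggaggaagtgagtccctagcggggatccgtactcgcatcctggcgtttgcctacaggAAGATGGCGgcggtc
Ndufs7: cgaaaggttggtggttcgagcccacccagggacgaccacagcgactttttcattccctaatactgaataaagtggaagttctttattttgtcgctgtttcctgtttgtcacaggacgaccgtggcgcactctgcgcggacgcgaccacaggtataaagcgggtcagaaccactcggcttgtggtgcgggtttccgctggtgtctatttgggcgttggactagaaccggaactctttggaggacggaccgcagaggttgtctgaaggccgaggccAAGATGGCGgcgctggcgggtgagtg
Ndufa6: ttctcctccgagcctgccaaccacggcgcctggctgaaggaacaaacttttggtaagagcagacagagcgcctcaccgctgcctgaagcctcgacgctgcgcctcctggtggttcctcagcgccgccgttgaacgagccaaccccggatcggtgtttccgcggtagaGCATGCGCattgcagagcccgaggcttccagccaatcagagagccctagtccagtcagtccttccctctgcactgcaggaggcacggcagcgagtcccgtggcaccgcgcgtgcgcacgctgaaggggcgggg
In both YY1 cases the match lies behind the annotated start, at bases 286 and 275 of the 300.

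Promoter sequences were matched for 64 of the 84 members, and 27 of them held at least 1 of 3 cores searched on both strands. The YY1 core stood in 7 of 64 (10.9%), against 1.64% of 27025 genes with promoters of the same length. A gene counts if any of its promoters holds the core. The NRF1 core (GCGCATGC, which on the other strand reads GCATGCGC) stood in 10 (15.6%), against 3.05%. The ETS core (CCGGAAG) stood in 16 (25.0%), against 9.93%, and a kappaB motif in 1 (1.56%), against 5.14%. No member had cores of different kinds that shared bases. Holding a core went with no single response to LPS: of the 7 members with the YY1 core, Ndufs4 rose, Ndufs7 and Atp5j2 fell and 4 were not called. Of the 10 with the NRF1 core, Ndufa6, Ndufa8 and Uqcr11 fell and 7 were not called, and of the 16 with the ETS core, Uqcrh rose, Atp5h and Uqcr11 fell and 13 were not called. Over the 64 members with a promoter, 4 rose under either label, 17 fell and 43 were not called. These matches describe letters in the window and no more.

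In complex II 0 of the 4 members passed the test with LPS under either label. Sdha, the flavoprotein that oxidises succinate, had 136, 123 and 139 CPM in knockout-labelled cells given LPS, against 138, 142 and 146 CPM in naive ones, and 160.1, 150.2 and 143 CPM in LPS-treated wild-type cells, against 159, 148 and 142 CPM in naive ones. The groups overlap under both labels. The membrane anchors Sdhc and Sdhd lay apart in wild-type cells, in opposite directions. Sdhc had 73.1, 77.0 and 70.3 CPM in LPS-treated wild-type cells, against 64.5, 61.6 and 63.6 CPM in naive ones (log2 fold change 0.22, 95% interval 0.01 to 0.43, adjusted p = 0.148). Sdhd had 46.7, 53.5 and 45.3 CPM in LPS-treated wild-type cells, against 55.1, 53.6 and 55.1 CPM in naive ones (-0.17, adjusted p = 0.248). The groups of both overlap in cells labelled knockout. The 95% interval of the log2 fold change of Sdhd ran from -0.38 to 0.04 in wild-type cells and from -0.27 to 0.14 in cells labelled knockout.

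Complex III held the member that rose under both labels. Uqcrfs1, the Rieske iron-sulfur protein, had 46.8, 50.9 and 46.2 CPM in knockout-labelled cells given LPS, against 34.2, 32.2 and 33.8 CPM in naive ones. It had 54.6, 53.2 and 52.9 CPM in LPS-treated wild-type cells, against 34.3, 39.1 and 35.1 CPM in naive ones. All 6 LPS-treated libraries lie above all 6 naive ones. The log2 fold change was 0.52 (SE 0.083, adjusted p = 0.000886) in cells labelled knockout and 0.57 (SE 0.083, adjusted p = 0.000425) in wild-type cells, and without the 3 libraries with Gpr34 counts it was 0.42 in cells labelled knockout (adjusted p = 0.0410). Both calls were lost on plain library sizes (adjusted p = 0.117 and 0.184), with the same sign.

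Uqcrh, the hinge protein of complex III, had 316, 302 and 328 CPM in LPS-treated wild-type cells, against 236, 298 and 249.7 CPM in naive ones, where replicate 2 nearly reaches the treated libraries. It rose by 0.27 on the log2 scale (adjusted p = 0.0361), a call kept in 3 of 12 omissions of a single library, and on plain library sizes the value was -0.14. Its promoter is shown as the one risen member with the ETS core, which here reads CTTCCGG on the gene's strand (chr4:116075021-116075320, minus strand).
Uqcrh: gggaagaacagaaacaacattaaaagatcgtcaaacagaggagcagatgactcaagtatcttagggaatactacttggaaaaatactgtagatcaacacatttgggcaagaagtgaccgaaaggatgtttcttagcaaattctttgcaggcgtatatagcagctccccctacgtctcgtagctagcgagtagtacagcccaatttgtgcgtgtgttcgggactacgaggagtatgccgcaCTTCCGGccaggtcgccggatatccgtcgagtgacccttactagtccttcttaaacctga
Uqcr11, the smallest subunit of complex III, had 5.92, 5.35 and 8.11 CPM in knockout-labelled cells given LPS, against 10.9, 7.22 and 12.1 CPM in naive ones, groups that overlap (log2 fold change -0.64, adjusted p = 0.0410). The call was kept in 2 of 12 omissions of a library, and the gene has 2 near-identical copies and is uncertain.

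In complex IV the paralogs Cox7a2 and Cox7a2l took opposite directions in wild-type cells. Cox7a2, a subunit of the enzyme, had 61.8, 57.4 and 63.5 CPM in LPS-treated wild-type cells, against 50.4, 51.9 and 48.5 CPM in naive ones (log2 fold change 0.28, adjusted p = 0.0480). Cox7a2l, a relative of Cox7a2 tied to supercomplexes of complexes III and IV and known to be shortened and less active in that role in C57BL/6 mice, had 140.4, 155 and 147 CPM in LPS-treated wild-type cells, against 176, 190.3 and 183 CPM in naive ones (-0.31, adjusted p = 0.0481). Neither pair of groups overlaps. In cells labelled knockout Cox7a2l had 134, 155 and 123 CPM with LPS, against 200, 159 and 166 CPM without (-0.35, adjusted p = 0.0330), and Cox7a2 did not pass. The wild-type call of Cox7a2 was kept in 2 of 12 omissions of a library and its value on plain library sizes was -0.14. That of Cox7a2l was kept in 5 of 12.

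The other complex IV members were not called after LPS. Cox4i1, a large nuclear subunit, had 158, 156 and 149 CPM in knockout-labelled cells given LPS, against 205, 149 and 171 CPM in naive ones, and 161, 167 and 187 CPM in LPS-treated wild-type cells, against 172, 185 and 171 CPM in naive ones, with overlap in both. Ndufa4, once counted to complex I and now known as a subunit of complex IV, had 25.5, 16.1 and 18.2 CPM with LPS, against 28.4, 17.9 and 24.4 CPM without it, in cells labelled knockout. Its wild-type values were 21.3, 23.0 and 21.8 CPM with LPS, against 22.5, 24.5 and 21.4 CPM without it.

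In complex V 1 member rose and 2 fell in wild-type cells, and 0 rose and 3 fell in cells labelled knockout. Atp5a1, the alpha subunit, had 959, 921 and 914 CPM in LPS-treated wild-type cells, against 797, 836 and 794 CPM in naive ones (log2 fold change 0.20, adjusted p = 0.0392). Atp5c1, the gamma subunit, had 478, 447 and 422 CPM in knockout-labelled cells given LPS, against 630.3, 544 and 580.1 CPM in naive ones (-0.38, adjusted p = 0.00731). In wild-type cells it had 524, 504 and 475 CPM with LPS, against 604, 651 and 565 CPM without it (-0.28, adjusted p = 0.0301). None of these groups overlap. The Atp5a1 call was kept in 2 of 12 omissions of a library and its value on plain library sizes was -0.21, while the Atp5c1 call in cells labelled knockout held in 20 of 20 alternatives. In wild-type cells the Atp5c1 call was lost without naive replicate 2, LPS replicate 2 or LPS replicate 3, with an adjusted p of up to 0.0979. Atp5h, the d subunit of the stator stalk, fell by 0.45 on the log2 scale in cells labelled knockout (adjusted p = 0.0106) and has 3 near-identical copies. Atp5j2, a subunit of the membrane part, fell by 0.27 there (adjusted p = 0.0209), and Atp5mpl, a small subunit of the membrane part, by 0.37 in wild-type cells (adjusted p = 0.0496), a call kept in 5 of 12 omissions of a library. Neither Atp5h nor Atp5j2 passed without the 3 libraries with Gpr34 counts (adjusted p = 0.169 and 0.0917).

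**Figure D3:**
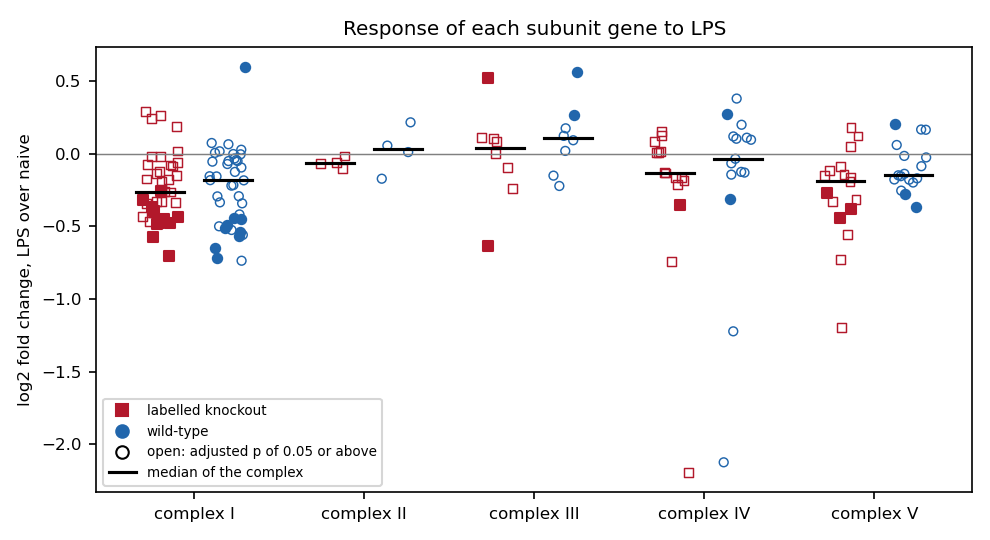
Log2 fold change of each of 83 members, LPS over naive, by complex (squares: cells labelled knockout; circles: wild-type cells; filled: adjusted p under 0.05; bars: complex medians). Most filled points below 0 belong to complex I, which holds 39 of the 83 members, with 11 in cells labelled knockout and 8 in wild-type cells. Uqcrfs1 of complex III is filled above 0 under both labels.

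Other genes of the pathway are given by list, to be read against the 18.1% of all genes that rose and 15.8% that fell in wild-type cells, and 15.3% and 13.4% in cells labelled knockout. Of the 13 subunits encoded in mitochondrial DNA, 4 rose in wild-type cells and 0 fell, with a median log2 fold change of 0.38, and 0 were called in cells labelled knockout, with a median of 0.21. The 4 were mt-Nd2, mt-Nd6, mt-Nd5 and mt-Nd1, all of complex I, at 0.59, 0.55, 0.50 and 0.47. On plain library sizes their LPS and naive groups overlapped. In the citric acid cycle and pyruvate dehydrogenase list 11 of 22 genes fell and 1 rose in wild-type cells, and 10 fell and 1 rose in cells labelled knockout. Idh2, which makes NADPH in mitochondria, had 8.69 ± 2.64 CPM with LPS against 38.4 ± 15.3 CPM without it in cells labelled knockout, and 8.10 ± 1.83 against 46.2 ± 5.16 CPM in wild-type cells (SD, n = 3). Fh1, fumarate hydratase, fell by 0.98 and 1.06 on the log2 scale, in cells labelled knockout and in wild-type cells, while citrate synthase (Cs) rose by 0.40 and 0.58.

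Of 49 assembly factors 6 rose and 13 fell in cells labelled knockout, and 6 rose and 12 fell in wild-type cells. Cox17 and Sco1, which deliver copper to complex IV, were among those that rose: Cox17 by 0.83 in cells labelled knockout and 1.01 in wild-type cells, and Sco1 by 1.69 in cells labelled knockout and 1.91 in wild-type cells, on the log2 scale. Of 14 tested electron carriers and adenine nucleotide carriers 2 rose and 4 fell under each label. Gpd2, which feeds electrons from glycerol 3-phosphate to ubiquinone, stood at 251 ± 13.2 CPM with LPS against 75.1 ± 21.5 CPM without it in cells labelled knockout, and at 236 ± 17.5 against 55.8 ± 2.69 CPM in wild-type cells (SD, n = 3). Ucp2 and Slc25a5, an uncoupling protein homolog and an ADP/ATP carrier, fell by 0.88 and 0.82 in cells labelled knockout and by 0.83 and 0.65 in wild-type cells. Atpif1, the inhibitor of the ATP synthase, fell by 0.59 in cells labelled knockout and by 0.54 in wild-type cells. Of 19 regulators of mitochondrial biogenesis 2 rose and 3 fell in cells labelled knockout, and 3 rose and 3 fell in wild-type cells. The coactivator Ppargc1b had 0.124 ± 0.0374 CPM with LPS against 1.87 ± 1.16 CPM without it in cells labelled knockout, and 0.171 ± 0.208 against 1.98 ± 0.755 CPM in wild-type cells. Of 24 ribosomal protein genes, another set of short and abundant transcripts, 0 rose and 4 fell under each label, with medians of -0.17 and -0.20.

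By genotype label no member was called in dendritic cells. In naive cells 0 of 83 members passed, as did 0.0% of all genes, with 1 member and 1139 genes at an unadjusted p under 0.05. With LPS 0 of 83 passed, again against 0.0%, with 18 members and 1914 genes at an unadjusted p under 0.05. The interaction of label and LPS gave 0 members, against 0.0%, with 4 members and 678 genes at an unadjusted p under 0.05, so the 2 LPS responses were not shown to differ for any member. DESeq2 called 0 members in naive cells, 4 with LPS and 0 for the interaction. Over all genes it called 46 higher and 32 lower in naive cells, 224 and 151 with LPS, and 10 and 11 for the interaction.

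The values with LPS nevertheless leaned one way. Of 83 members 73 had a lower mean in cells labelled knockout, with a median log2 difference of -0.15 beside -0.01 for all genes. On plain library sizes the all-gene median was 0.04, and 7 members and 1922 genes had an unadjusted p under 0.05. With the factors, the 3 libraries labelled knockout lay below the 3 wild-type ones for 29 members (34.9%), and above for 0. Of all genes 8.97% lay above and 8.57% below. The lean covers every complex, with medians of -0.13 for complex I, -0.19 for complex II, -0.16 for complex III, -0.13 for complex IV and -0.18 for complex V. Some other lists leaned the same way with LPS: 4 of 24 ribosomal protein genes were positive (median -0.08) and 2 of 14 electron and adenine nucleotide carriers (-0.12). In the citric acid cycle list 10 of 22 genes were positive (-0.01), and 12 of 19 regulators (0.06). In naive cells 5 of 24 ribosomal protein genes were positive (-0.06). Without the 3 libraries with Gpr34 counts the members' median with LPS was -0.13, with 16 of 83 members above 0. That value rests on LPS replicate 2 alone among the libraries labelled knockout. In naive cells the members' median was -0.10 with 18 of 83 above 0. It was -0.03 with 31 above 0 without the 3 libraries, -0.04 without naive replicate 3 labelled knockout alone, and -0.18 without naive replicate 2 labelled knockout. The naive and LPS comparisons share no libraries. Without the 3 libraries with Gpr34 counts, 0 members were called and 9 had an unadjusted p under 0.05 with LPS.

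Ndufv2, a core subunit of complex I, had the smallest p with LPS at 98.6 ± 5.55 CPM in cells labelled knockout and 121 ± 8.66 CPM in wild-type cells (SD, n = 3 each; log2 difference -0.30, 95% interval -0.45 to -0.14, adjusted p = 0.2395). Ndufs4 stood at 28.3 ± 2.18 CPM in cells labelled knockout and 36.1 ± 3.35 CPM in wild-type cells (-0.35, interval -0.55 to -0.15, adjusted p = 0.261). Atp5j2 stood at 167 ± 6.12 CPM in cells labelled knockout and 203 ± 9.75 CPM in wild-type cells (-0.28, adjusted p = 0.242). Uqcr11 stood at 6.46 ± 1.46 CPM in cells labelled knockout and 11.1 ± 0.868 CPM in wild-type cells (-0.78, adjusted p = 0.242). The groups of these 4 genes do not overlap, and these are the 4 that DESeq2 called, with adjusted p-values of 0.00496, 0.0195, 0.0149 and 0.0287. For Ndufs4 the interaction was -0.33 (95% interval -0.61 to -0.05) and did not pass either. In naive cells the smallest p was that of Atp5mpl, at 31.5 ± 4.19 CPM in cells labelled knockout and 39.1 ± 3.28 CPM in wild-type cells (-0.31, interval -0.57 to -0.06, adjusted p = 0.732).

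In spleen the members leaned the other way and again none was called. Of 84 members 80 had a positive log2 difference of knockout over wild-type spleens, with a median of 0.22 beside 0.01 for all genes, and 0 were called, against 0.177% of all genes (36 of 20371). At an unadjusted p under 0.05 stood 24 members and 3541 genes. The medians by complex were 0.24 for complex I, 0.15 for complex II, 0.26 for complex III, 0.19 for complex IV and 0.22 for complex V. On plain library sizes the members' median was 0.10 with 71 of 84 positive, beside -0.10 for all genes. DESeq2 called 3 members, and without knockout replicate 6, the knockout spleen lowest in complexes I, II, III, IV and V, edgeR's test called 9 members. Those settings also called more genes of all: DESeq2 461 higher and 439 lower, and edgeR's test without that spleen 524 and 527.

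Uqcrc1, a core subunit of complex III, had a lowest, median and highest value of 121, 152 and 199.7 CPM in knockout spleens and of 113, 127 and 145 CPM in wild-type spleens. The ranges overlap, with a mean of 159.8 ± 24.1 CPM (SD, n = 9) against 129 ± 10.6 CPM (SD, n = 10). The log2 difference was 0.31 (SE 0.081, 95% interval 0.15 to 0.47, adjusted p = 0.0760), and 0.36 without knockout replicate 6 (adjusted p = 0.0160). Ndufv1 had 183, 228 and 297 CPM in knockout spleens and 159, 186 and 214 CPM in wild-type spleens, also overlapping (0.32, SE 0.083, adjusted p = 0.0809), and 0.35 without knockout replicate 6 (adjusted p = 0.0200). Atp5e, the epsilon subunit of the ATP synthase, averaged 180.2 ± 57.2 CPM in knockout and 127 ± 27.7 CPM in wild-type spleens (0.51, adjusted p = 0.134). Cox4i1 averaged 211 ± 55.7 CPM in knockout and 162 ± 22.3 CPM in wild-type spleens (0.38, adjusted p = 0.151). Sdhc, a membrane anchor of complex II, averaged 75.5 ± 8.96 CPM in knockout and 65.4 ± 7.11 CPM in wild-type spleens (0.21, adjusted p = 0.190).

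The spread within a genotype exceeded these differences. The mean log2(CPM + 0.5) of complex I ran from 4.69 to 5.78 over knockout spleens and from 4.67 to 5.41 over wild-type spleens. Knockout replicate 9 was the highest spleen in all 5 complexes. Ribosomal protein genes, not subunits of the chain, were positive in 24 of 24 with the same median of 0.22 and 0 calls, and their mean log2 CPM was also highest in knockout replicate 9 (9.18) and lowest among knockout spleens in replicate 6 (7.92). Of the 13 mitochondrially encoded subunits 4 were positive, with a median of -0.05. Tissue makeup varied too: 9 erythroid markers summed to 40050 to 227400 CPM in knockout and 31300 to 111200 CPM in wild-type spleens, and 11 exocrine pancreas markers to 5.28 to 7498 CPM in knockout and 2.81 to 2406 CPM in wild-type spleens. Their part in the differences was not tested. Wild-type spleens also differed by replicate number. Their mean log2(CPM + 0.5) of complex III was 5.137 to 5.506 in replicates 1 to 5 and 5.635 to 5.999 in replicates 6 to 10. In complexes I, II, IV and V these sets overlapped. Knockout spleens overlapped in complex III, at 5.555 to 6.092 in replicates 1 to 5 and 5.424 to 6.389 in replicates 6 to 9. This split was picked after the values were seen, and its source was not tested.

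**Figure D4:**
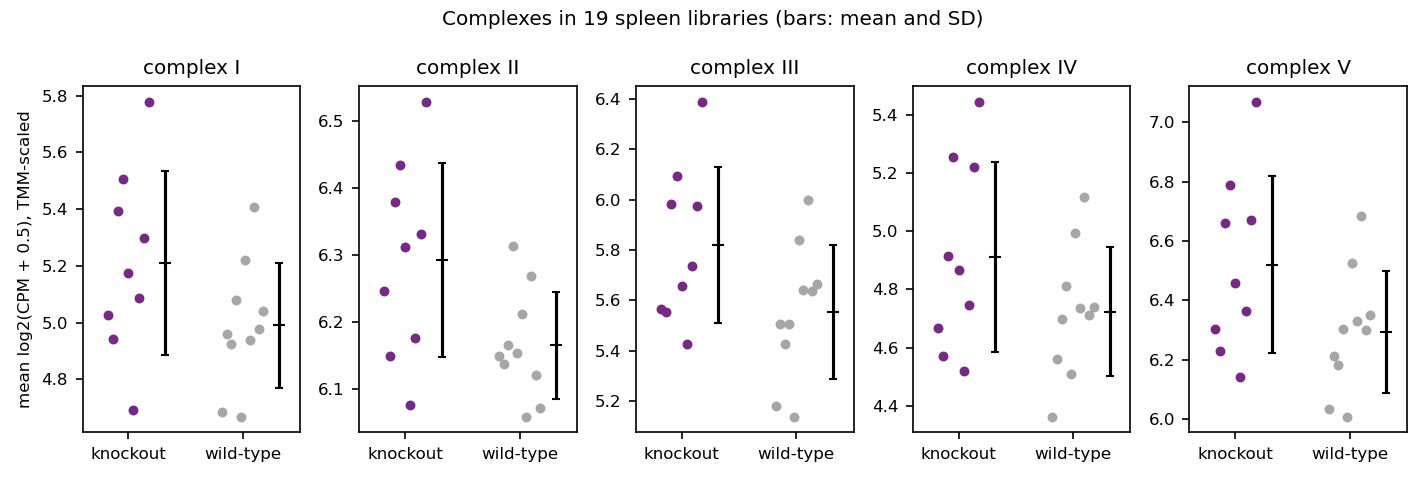
Mean log2(CPM + 0.5) of the members of each complex in 9 knockout and 10 wild-type spleens (points: libraries; bars: mean and SD). The groups overlap in all 5 complexes; in complex I knockout spleens run from 4.69 to 5.78 and wild-type spleens from 4.67 to 5.41.

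Naive wild-type dendritic cells were set against wild-type spleens, which differ in culture, cell types and age range, so that cell type and preparation cannot be told apart. For this comparison all 31 libraries were scaled together, so CPM values of the dendritic cells here stand above those given earlier from scaling within the cultures. Of 84 members 36 (42.9%) were higher and 15 (17.9%) lower in dendritic cells, against 25.1% and 41.6% of all genes, and the members' median log2 difference was 0.24 beside -0.44 for all genes. By complex as the symbols assign it, 12 members of complex V were higher and 4 lower, 10 and 8 of complex I, 7 and 3 of complex IV, 4 and 0 of complex III, and 3 and 0 of complex II. The lower members of complex I include Ndufa4, its relative Ndufa4l2 and the pseudogene Ndufb4c. The higher ones include the pseudogene Ndufa11b. On plain library sizes 24 were higher and 19 lower with an all-gene median of -0.61, and after removal of GC and length trends from each library 62 were higher and 9 lower with an all-gene median of -0.06.

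The largest differences without a near-identical copy in doubt were those of Ndufa4l2, Cox6b2 and Cox6a2, all lower in dendritic cells and given below. Members called higher in dendritic cells come first. Sdhd had 62.4 ± 0.925 CPM in dendritic cells (SD, n = 3) and 27.6 ± 1.87 CPM in spleens (SD, n = 10), a log2 difference of 1.18 (SE 0.091, adjusted p = 4.4e-12), while its partners Sdha and Sdhc differed by 0.24 and 0.26. Atp5c1 had 694 ± 50.0 CPM in dendritic cells and 313 ± 31.4 CPM in spleens (1.15, adjusted p = 9.7e-13), beyond Atp5a1 and Atp5b at 0.42 and 0.50. Ndufc1, an accessory subunit of complex I, had 15.6 ± 3.02 CPM in dendritic cells and 4.47 ± 1.92 CPM in spleens (1.80, adjusted p = 8.7e-06). Cox5a, a subunit of complex IV, had 106 ± 7.35 CPM in dendritic cells and 53.9 ± 15.0 CPM in spleens (0.97, adjusted p = 0.000135). In complex III Uqcrfs1 and Uqcrc2, a core subunit, were higher by 0.73 and 0.36, and so were Uqcr11 and Uqcr10, which have near-identical copies, by 0.63 and 0.62.

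The tissue isoforms Cox6a2, Cox6b2 and Ndufa4l2 were low in both tissues beside their common partners, and lower in dendritic cells. Cox6a2 and Cox6b2, known in mouse from striated muscle and from testis, had 0.315 ± 0.111 and 0.476 ± 0.302 CPM in dendritic cells, against 2.18 ± 0.623 and 5.60 ± 1.83 CPM in spleens (log2 differences -2.79 and -3.56). Their common partners Cox6a1 and Cox6b1 had 96.3 ± 4.06 and 111 ± 6.76 CPM in dendritic cells, against 83.3 ± 16.5 and 83.5 ± 15.2 CPM in spleens. Of these Cox6b1 was called higher in dendritic cells by 0.41 (adjusted p = 0.0486), a call kept in 2 of 13 omissions of a library. Ndufa4 had 26.1 ± 1.79 CPM in dendritic cells and 75.6 ± 12.0 CPM in spleens (-1.54, adjusted p = 1.3e-07). Its relative Ndufa4l2, at 0 counts in dendritic cells, averaged 0.746 CPM in spleens, so with a floor of 3 counts over the group it was at least 43.4-fold lower in dendritic cells, a floor that covers counting error only. Cox7a1, the muscle and heart form, ranged from 0 to 0.884 CPM over dendritic cell libraries and from 0.139 to 2.76 CPM over spleens, each scaled within its own tissue.

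Several of the largest falls belonged to genes with near-identical copies, whose counts the authors' handling of reads with several places could divide. Atp5g2, a c-ring subunit with 2 copies, had 0.422 ± 0.0276 CPM in dendritic cells and 31.1 ± 10.5 CPM in spleens (log2 difference -6.19), Atp5l with 8 copies differed by -2.50, Ndufb4 and Ndufb4c with 1 copy each by -2.09 and -4.19, and Ndufs3 with 1 copy by -1.45. Among members with a copy 8 of 23 were higher and 8 lower, and among those without 28 of 61 were higher and 7 lower. Of the 13 mitochondrially encoded subunits 6 were higher and 6 lower, with mt-Co2 at 1.22 CPM in dendritic cells against 1114 CPM in spleens. Cycs, cytochrome c, was also lower, by 5.33 on the log2 scale. How such differences arise was not tested.

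**Figure D5:**
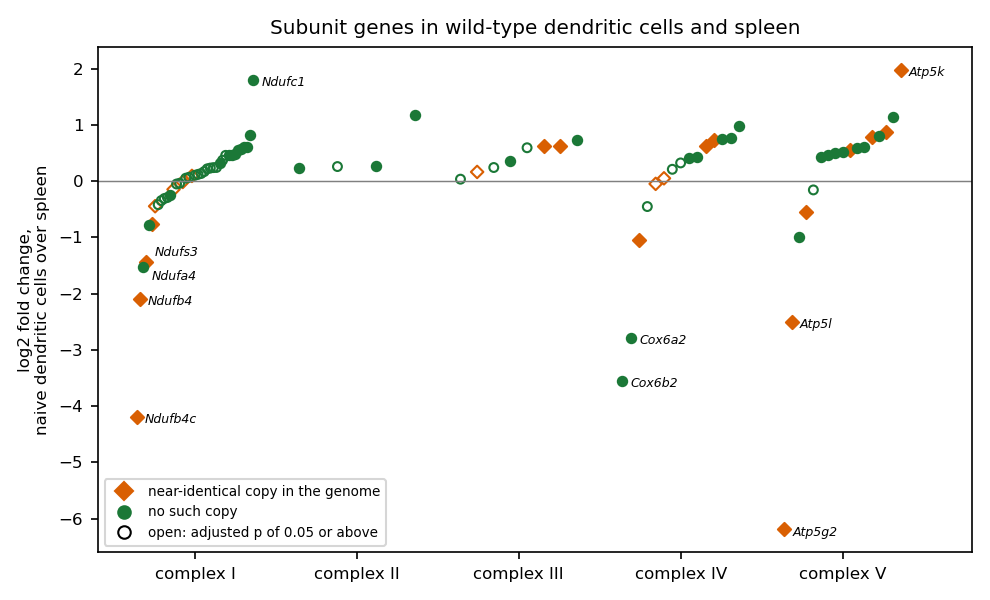
Log2 fold change of 83 members (Ndufa4l2 left out), naive wild-type dendritic cells over wild-type spleens, ordered within each complex (diamonds: members with a near-identical copy; circles: members without; filled: adjusted p under 0.05). Complexes II and III lie above 0, and Atp5g2 (-6.19), Ndufb4c (-4.19), Cox6b2 (-3.56) and Cox6a2 (-2.79) lie far below.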

How the data were processed

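Raw read counts per gene were used as the authors deposited them, per the labels one table a library. The submitters' processing notes list mm9 as build and, as tools, DESeq, bedtools, SAMtools, Bowtie and TopHat 1.3.3. Annotation release, strand use and the rule for multi-mapping reads were not given in the sources used here. Genes missing from a library's table count as 0 there. In 514 of 15989 genes with over 2000 counts in all (3.22%) the counts share a divisor above 1, so a read may be counted more than once. Libraries within a group differed by a chi-square of at least 24.8 per gene, so none was treated as a repeat of another.

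edgeR 4.0.16 (R 4.3.3, limma 3.58.1) fitted TMM-scaled counts with its quasi-likelihood test in 12 dendritic cell libraries (16965 genes, 8 residual degrees of freedom), 19 spleens (20371 genes, 17) and all 31 libraries for the tissue comparison (22585 genes, 25), after its filter on low counts. P-values were adjusted over all genes by Benjamini-Hochberg, with a threshold of 0.05. DESeq2 1.42.0, other scalings, no filter, a replicate block and omitted libraries were alternatives. Log2 levels used a pseudocount of 0.5 CPM. Fold changes are given as log2. Intervals called 95% are the estimate ± 1.96 SE, which is narrower than the test allows with few degrees of freedom.

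Per comparison and complex, up to 4 called members with the largest changes each way were named, otherwise up to 2 with the smallest p, plus fixed tissue isoforms and up to 4 genes per pathway list. Members and lists were chosen with earlier results of these data known. Copies are loci of 95% identity over 80% of the coding sequence. Gene places are GRCm38, matched by Ensembl ID.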

Additional observations from a re-analysis of the deposited data

Results flagged for a closer look

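Among 50 groups of values from 9 knockout or 10 wild-type spleens tested for 1 value far from the others, 3 had one, all in knockout spleens. By chance about 1 in 20 groups is marked. Dendritic cell groups, of 3 libraries each, were not tested for this. Cox6b2, the testis form of a complex IV subunit, stood at 24.5 CPM in knockout spleen replicate 4, far above the other knockout spleens. Cox7a1, the muscle form, stood at 2.76 CPM in knockout spleen replicate 8. Cox7a2l stood at 241 CPM in knockout spleen replicate 9, the spleen that was also highest in the mean of all 5 complexes.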

How the results depend on the processing

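With LPS in wild-type cells, members called higher were 3 with RLE factors, 0 on plain library sizes, 2 without a filter on low counts, 2 with the replicate block and 2 to 5 when 1 library was left out, against 5; those called lower were 60 on plain library sizes, 7 with the replicate block and 6 to 16 with 1 library left out, against 11. In cells labelled knockout, members called higher were 2 with DESeq2, 0 on plain library sizes and 2 with GC and length trends removed, against 1. Those called lower were 60 on plain library sizes, 6 in the fit on the libraries compared alone, 12 with the replicate block and 5 to 28 with 1 library left out, against 16. On plain library sizes Uqcrh (-0.14), Cox7a2 (-0.14) and Atp5a1 (-0.21) turned round in wild-type cells, where all-gene calls were 1599 higher and 6128 lower. DESeq2 called 4 members by label with LPS and 3 in spleen, where leaving out 1 library gave 0 to 9. Between tissues, 62 were higher and 9 lower with GC and length trends removed, against 36 and 15. The cause of these shifts was not tested. Deviations of same-numbered libraries correlated at -0.0894 to 0.0747 in dendritic cells and at -0.0782 to 0.29 in spleens, where 5 of 9 pairs were over 0.1. Since not every pair was, the numbers were not taken to pair the samples. The block called 0 members by label and in spleen, and could not be applied between tissues. With 3 libraries a group, small changes of single members are at the limit of detection.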
